A study of Canis lupus familiaris with 30 samples.

Results

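IDO1 and a group of T-cell checkpoint receptor genes were described in lymph node aspirates from dogs with lymphoma. The named genes were IDO1, CD274, PDCD1, CTLA4, LAG3, TIGIT and HAVCR2, and 5 of these 7 could be paired with a gene ID through the gene symbols printed beside Ensembl IDs in the supplementary tables of the study. They were IDO1 (ENSCAFG00000005750), PDCD1 (ENSCAFG00000013184), LAG3 (ENSCAFG00000014675), TIGIT (ENSCAFG00000010817) and HAVCR2 (ENSCAFG00000032010), of 32704 gene IDs in all. CD274 and CTLA4 were not analysed here. IDO1 was chosen by its rise at the six-week timepoint, so its change over time is given as a description without a test.

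Each of 15 dogs gave 1 fine needle aspirate of an enlarged node immediately before treatment (initial timepoint) and 1 aspirate 6 weeks into CHOP (six-week timepoint), which made 30 libraries. CHOP is a combination chemotherapy of cyclophosphamide, doxorubicin, vincristine and prednisone. The labels gave the immunophenotype as B-cell for 7 dogs, T-cell for 3 dogs and Unknown for 5 dogs. No untreated dogs were sampled, so that time and treatment cannot be told apart. The aspirates were bulk samples of tumor and other node cells, and fewer cells of a type and less RNA per cell cannot be told apart in them.

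IDO1 encodes indoleamine 2,3-dioxygenase, which converts tryptophan into kynurenine. It is made by dendritic cells, macrophages and some tumor cells after exposure to interferon gamma, and the loss of tryptophan and gain of kynurenine restrain T cells. PDCD1 (PD-1), LAG3, TIGIT and HAVCR2 (TIM-3) are receptors on activated or exhausted T cells that dampen signaling when they meet ligands on tumor or antigen-presenting cells. HAVCR2 is also made by macrophages and dendritic cells, and TIGIT and LAG3 by NK cells. In the RefSeq annotation of the dog, IDO2 is among the protein-coding neighbors of IDO1, CD4 among those of LAG3, and HAVCR1 and TIMD4 among those of HAVCR2.

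The labelled immunophenotypes were compared with marker genes first. The summed FPKM (fragments per kilobase of transcript, scaled to sequencing depth) of 8 T-cell markers was 942 and 1127 at the initial timepoint in T-cell dogs 028 and 036, but 50.7 in T-cell dog 038. In B-cell dogs it was 39.5 to 111 apart from dog 029, at 580. Dog 038 had 177 FPKM over 3 B-cell markers and dog 029 had 73.4, against 140 to 283 in the other B-cell dogs. Dog 038, labelled T-cell, and dog 029, labelled B-cell, thus went against their labels in these markers, and values between T-cell and B-cell dogs are given with and without both. At 6 weeks the T-cell marker sum of dog 036 was 371 and its B-cell marker sum was 60.8, from 2.78. Total counts were 4318394 to 43413353 per library, the lowest in the six-week library of dog 036. The FPKM values of the six-week library of dog 033 summed to 2253173, above every other library. In 6 dogs (024, 027, 028, 029, 030 and 035) the deposited counts did not follow the FPKM values of the same gene IDs, with rank correlations of 0.0868 to 0.117, against 0.880 to 0.984 in the other 9 dogs. FPKM was therefore used for all dogs, counts were used in 9 dogs, and values are given for both sets of dogs.

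The members differed widely in level. FPKM is scaled by transcript length, so an order between genes rests on the lengths of the gene models, which were not checked. The median FPKM over the 30 libraries was 4.33 for HAVCR2, 2.49 for IDO1, 1.09 for TIGIT, 0.291 for LAG3 and 0.137 for PDCD1. HAVCR2 was above IDO1 in 11 of 15 dogs at the initial timepoint but in 6 of 15 at 6 weeks, so the order of these neighbors did not hold. IDO1 was above TIGIT in 11 and 13 of 15 dogs. TIGIT was above LAG3 in 15 and 14 of 15 dogs, the clearest step in the order. LAG3 and PDCD1 were not separated, with LAG3 higher in 10 and 8 of 15 dogs. PDCD1 was at 0 FPKM in 12 of 30 libraries and LAG3 in 6. In the 18 libraries with usable counts PDCD1 had 0 to 19 reads and LAG3 0 to 22, so that small differences in these receptors were not detectable at this depth. IDO1 had 0 to 598 reads with a median of 95, TIGIT 12 to 250 with a median of 68 and HAVCR2 13 to 161 with a median of 49. The HAVCR2 median was thus the lowest of these in reads, while it was the highest in FPKM over the 30 libraries.

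**Figure D1:**
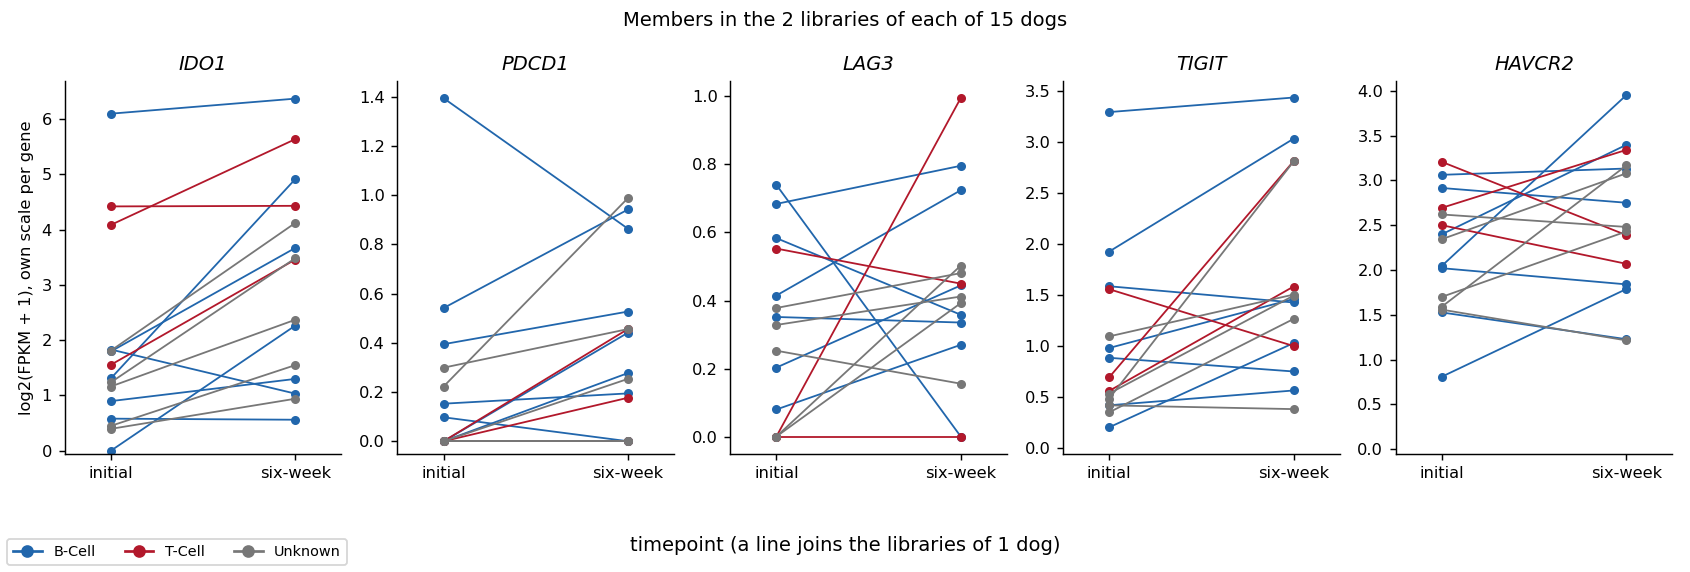
Each panel plots 1 gene as log2(FPKM + 1) on its own axis, and each line joins the initial and six-week library of 1 of 15 dogs, colored by immunophenotype. IDO1 is higher at 6 weeks in 13 of 15 dogs and TIGIT in 11 of 15, while HAVCR2 is higher in 8 of 15.

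The first comparison asked how the members differed between the initial and the six-week timepoint. IDO1 was higher at 6 weeks in 13 of 15 dogs and TIGIT in 11 of 15, PDCD1 was higher in 10, LAG3 in 9 and HAVCR2 in 8. The mean change of log2(FPKM + 1) was 1.23 for IDO1, 0.64 for TIGIT, 0.35 for HAVCR2, 0.17 for PDCD1 and 0.12 for LAG3. No member other than IDO1, which was not tested, passed the FDR-adjusted threshold of 0.05.

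IDO1 had a lowest FPKM of 0, a median of 1.47 and a highest of 67.3 at the initial timepoint. At 6 weeks these were 0.476, 9.98 and 81.5. The ranges of both timepoints overlapped widely, and the dogs differed more before treatment (SD 1.71 in log2(FPKM + 1)) than they changed on average. In B-cell dog 034 IDO1 went from 1.47 to 29.1 FPKM, in B-cell dog 037 from 2.47 to 11.7, and in B-cell dog 003 from 0 to 3.80. In dogs of unknown immunophenotype it went from 2.51 to 16.4 in dog 025 and from 1.36 to 10.2 in dog 035. These 5 dogs, T-cell dog 038 (1.94 to 9.98 FPKM) and T-cell dog 036 (15.95 to 48.6 FPKM) had the largest changes.
The other dogs of unknown immunophenotype had lower IDO1 levels at both timepoints, at 0.316 to 1.24 FPKM initially and 0.919 to 4.16 at 6 weeks. IDO1 was nearly level in T-cell dog 028, at 20.4 and 20.5 FPKM. It was highest in dog 029 at both timepoints, at 67.3 and 81.5 FPKM. It was lower at 6 weeks in B-cell dog 030 (2.56 to 1.05 FPKM) and in B-cell dog 033 (0.496 to 0.476 FPKM). The mean change was 1.23 ± 1.17 (SD, n = 15), or 2.35-fold in FPKM + 1. Of the 14257 genes with a mean FPKM above 1, 12 had a larger mean change and 1.51% were higher at 6 weeks in as many dogs. As IDO1 was chosen by its rise, this place among the genes is a description and no support for the rise.

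TIGIT, the receptor for CD155 and related nectins, had a lowest FPKM of 0.154, a median of 0.621 and a highest of 8.82 at the initial timepoint, and of 0.306, 1.76 and 9.84 at 6 weeks. The largest steps were in dog 025 (0.403 to 6.02 FPKM), T-cell dog 036 (0.621 to 6.03 FPKM) and B-cell dog 034 (2.81 to 7.20 FPKM). Values at both timepoints overlapped, and dog 029 was highest at each. TIGIT was lower at 6 weeks in dogs 024, 027, 028 and 030. The change of 0.64 had a 95% interval of 0.22 to 1.06 and an FDR-adjusted p of 0.300 (limma, dog as block). A two-sided exact permutation test of TIGIT alone, over the signs of the 15 dogs, gave p = 0.0064, which is not adjusted for the number of genes. Among all genes tested, 10.8% were higher at 6 weeks in as many dogs as TIGIT.

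HAVCR2 had FPKM values of 0.752, 4.08 and 8.23 (lowest, median and highest) at the initial timepoint and of 1.32, 4.58 and 14.5 at 6 weeks. Its levels overlapped almost entirely between timepoints. Its largest differences were in dog 034, from 3.13 to 14.5 FPKM, and in dog 025, from 2.01 to 7.98 FPKM. The lowest change was in T-cell dog 028, from 8.23 to 4.24 FPKM. The mean change of 0.35 (95% interval -0.05 to 0.76) had an FDR-adjusted p of 0.445 (limma). A two-sided exact permutation test of HAVCR2 alone gave p = 0.11, which is not adjusted for the number of genes. Among all genes tested, 51.8% were higher at 6 weeks in as many dogs as HAVCR2.

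PDCD1 and LAG3 were below the mean FPKM of 1 needed for the fit over all genes and were tested singly. PDCD1 was at 0 to 1.63 FPKM initially, with a median of 0, and at 0 to 0.984 FPKM at 6 weeks, with a median of 0.212. It was at 0 in 8 of 15 initial and 4 of 15 six-week libraries, and the highest value was that of dog 029 before treatment. Its change of 0.17 gave p = 0.050 in the two-sided exact permutation test. Without dog 029 it was 0.21 with an exact p of 0.0029, and without dog 027 it was 0.18 with an exact p of 0.039. With a pseudocount of 0.1 the change was 0.74, with an exact p of 0.017. On leaving out each dog the change was 0.12 to 0.21. Over all 19 alternatives p was 0.0029 to 0.16 (exact permutation, or limma with FDR adjustment).
LAG3, a CD4-related receptor for MHC class II, was at 0 to 0.670 FPKM initially (median 0.255) and at 0 to 0.994 FPKM at 6 weeks (median 0.330). Its change of 0.12 gave an exact permutation p of 0.27. Without dog 030, in which LAG3 went from 0.670 to 0 FPKM, it was 0.18 with an exact p of 0.039. On leaving out each dog the LAG3 change was 0.05 to 0.18. Over all 19 alternatives p was 0.039 to 0.60 (exact permutation, or limma with FDR adjustment). The exact p-values of PDCD1 and LAG3 are not adjusted for the number of genes, and the values near 0 rest on few reads. Over all genes, 20.8% were higher at 6 weeks in as many dogs as PDCD1 and 35.0% in as many as LAG3.

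Over all 14257 genes the limma fit called none (0%) between timepoints, while 1823 had an unadjusted p below 0.05. In the read counts of 9 dogs, edgeR called 0 of 11919 genes (0%), while 1814 had an unadjusted p below 0.05. DESeq2 called 1133 of 11510 (9.84%). The log2 fold changes in counts by edgeR were 2.53 (SE 0.55) for IDO1, 1.92 (SE 0.38) for TIGIT and 0.89 (SE 0.30) for HAVCR2. The FDR-adjusted p was 0.242 for TIGIT and 0.251 for HAVCR2 with edgeR, and 1.25e-04 and 0.031 with DESeq2. TIGIT and HAVCR2 were thus past the threshold with one count tool and not the other. IDO1 reads went from 48 to 598 in dog 034, from 0 to 165 in dog 003, and from 77 to 197 in dog 038.

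The changes differed between the sets of dogs. In the 9 dogs whose counts followed FPKM, the mean change was 1.75 for IDO1, 1.04 for TIGIT and 0.66 for HAVCR2 on the log2(FPKM + 1) scale. In the other 6 dogs it was 0.45 for IDO1, 0.03 for TIGIT and -0.12 for HAVCR2. IDO1 was higher at 6 weeks in 8 of 9 and 5 of 6 dogs, TIGIT in 9 of 9 and 2 of 6, and HAVCR2 in 6 of 9 and 2 of 6. The difference between the sets was not tested. The 9 dogs were 4 labelled B-cell, 2 T-cell and 3 Unknown. The paper describes 2 expression clusters, 9 dogs with longer and 6 with shorter progression-free survival. Its larger cluster had the same numbers of B-cell, T-cell and unknown dogs as the 9 dogs here. The labels do not give the cluster of a dog, so whether these sets are those clusters was not tested. In limma over the 9 dogs alone the FDR-adjusted p was 0.222 for TIGIT and 0.240 for HAVCR2.

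**Figure D2:**
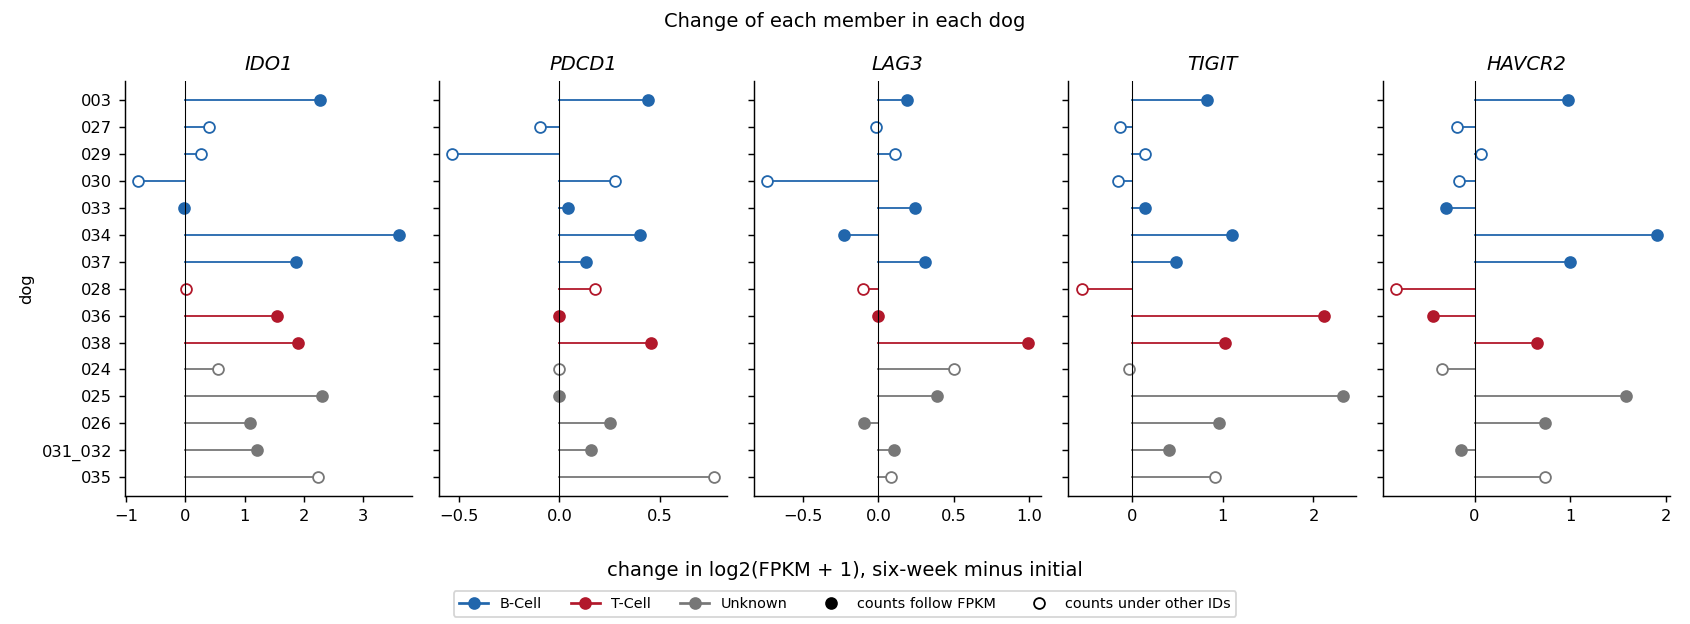
Each panel plots the change of 1 gene in log2(FPKM + 1), six-week minus initial, for each of 15 dogs, colored by immunophenotype. Filled circles are the 9 dogs whose counts followed FPKM and open circles the other 6, and TIGIT lies to the right of 0 in 9 of 9 filled and 2 of 6 open circles.

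The marker genes of the cells in the aspirates were read beside these changes. At 6 weeks the summed FPKM of the T-cell markers was 30.2 to 874, with a median of 87.6, against 22.9 to 1127 with a median of 54.8 before treatment, and it was higher in 8 of 15 dogs. It stepped up most in dog 025, from 43.3 to 565, and in dog 034, from 111 to 484, which were also the dogs with the largest HAVCR2 changes. The sum of 4 NK and cytotoxic markers had medians of 8.01 and 25.6 FPKM (ranges 2.68 to 45.8 and 2.38 to 66.8) and was higher in 9 of 15 dogs. The sum of 4 dendritic cell markers had medians of 24.9 and 41.9 (ranges 11.4 to 71.0 and 15.1 to 73.7) and was higher in 14 of 15 dogs. The sum of 7 macrophage and monocyte markers had medians of 103.6 and 133 (ranges 14.9 to 197 and 23.1 to 458) and was higher in 9 of 15 dogs. CYBB had the highest level of the 7, with medians of 64.3 and 56.8 FPKM, and a mean change of -0.14. Its difference before treatment, T-cell minus B-cell dogs, was -1.89 (FDR-adjusted p = 0.130, limma), so this sum may not follow macrophages alone. The sum of 3 B-cell markers had medians of 166 and 113 (ranges 2.78 to 283 and 7.83 to 252) and was higher in 3 of 15 dogs. The sum of 6 endothelium and stroma markers had medians of 16.8 and 37.1 (ranges 4.76 to 85.8 and 1.63 to 77.7) and was higher in 9 of 15 dogs. The granulocyte marker S100A8 had medians of 1.81 and 2.03 (ranges 0 to 20.6 and 0 to 145) and was higher in 7 of 15 dogs. No marker of these lists was at 0 in every library.
Mean changes were positive for all 8 T-cell markers, all 4 NK markers, all 4 dendritic markers, all 6 endothelium and stroma markers, the granulocyte marker, 6 of 7 macrophage markers and none of 3 B-cell markers, against 48.6% of all genes tested. None of them passed the adjusted threshold. With the T-cell marker score as a covariate, the change was 0.86 (SE 0.25) for IDO1, 0.44 (SE 0.21) for TIGIT and 0.04 (SE 0.15) for HAVCR2. The value for HAVCR2 was thus near 0 and those for IDO1 and TIGIT smaller than without the covariate.

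The changes of IDO1, TIGIT and HAVCR2 were related over the 15 dogs to each other and to the changes of 5 marker scores, each the mean of log2(FPKM + 1) over a list. These 18 relations were chosen after the data were examined. The 7 that hold the IDO1 change, on which IDO1 was chosen, are given as descriptions without a test. The other 11 had two-sided permutation tests, adjusted over the 11 by Benjamini-Hochberg.

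IDO1 and HAVCR2 changes had Pearson r = 0.83 and Spearman rho = 0.76. Without dogs 034 and 025, the farthest from the median HAVCR2 change, r was 0.72, and within the sets of 9 and 6 dogs it was 0.82 and 0.72. IDO1 and TIGIT changes had r = 0.70 and rho = 0.82. Without dogs 036 and 025 r was 0.84, and within the sets it was 0.41 and 0.84. With the marker scores the IDO1 change had r = 0.74 for NK and cytotoxic cells, 0.63 for dendritic cells, 0.62 for T cells, 0.57 for macrophages and -0.12 for B cells. The corresponding rho values were 0.80, 0.80, 0.65, 0.56 and -0.18. Without the 2 farthest dogs of each relation r was 0.62, 0.62, 0.57, 0.61 and -0.27. Within the sets of 9 and 6 dogs r was 0.61 and 0.88 for the NK score, 0.53 and 0.81 for the dendritic score, 0.56 and 0.96 for the T-cell score, 0.51 and 0.49 for the macrophage score, and -0.26 and 0.01 for the B-cell score.

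TIGIT had r = 0.85 with the NK and cytotoxic score (permutation p = 1e-04, adjusted 0.0011) and rho = 0.84 (permutation p = 0.0002, adjusted 0.0022), with r = 0.81 without dogs 034 and 025 and r = 0.80 and 0.90 within the sets. With the dendritic score it had r = 0.82 (permutation p = 0.00024, adjusted 0.0013) and rho = 0.80 (permutation p = 0.00044, adjusted 0.0024), r = 0.80 without dogs 038 and 025, and r = 0.83 and 0.37 within the sets. With the macrophage score it had r = 0.73 (permutation p = 0.0038, adjusted 0.010) and rho = 0.59 (permutation p = 0.023, adjusted 0.052). That r was 0.39 without dogs 036 and 025, and 0.79 and 0.06 within the sets, so the relation rests on few dogs. With the T-cell score TIGIT had r = 0.48 (permutation p = 0.082, adjusted 0.11) and rho = 0.48 (permutation p = 0.073, adjusted 0.11), and r was 0.14 without dogs 003 and 025, and 0.33 and 0.90 within the sets. In dog 036 TIGIT was higher at 6 weeks while the T-cell marker sum was lower.

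HAVCR2 had r = 0.76 with the T-cell score (permutation p = 0.0011, adjusted 0.0040) and rho = 0.68 (permutation p = 0.0071, adjusted 0.026), r = 0.68 without dogs 003 and 025, and r = 0.75 and 0.82 within the sets. With the NK score it had r = 0.56 (permutation p = 0.038, adjusted 0.059) and rho = 0.49 (permutation p = 0.069, adjusted 0.11), and r = 0.33 and 0.86 within the sets. With the B-cell score it had r = -0.48 (permutation p = 0.032, adjusted 0.059) and rho = -0.42 (permutation p = 0.12, adjusted 0.16), and r = -0.67 and -0.29 within the sets. TIGIT and HAVCR2 had r = 0.58 (permutation p = 0.029, adjusted 0.059) and rho = 0.59 (permutation p = 0.023, adjusted 0.052), with r = 0.39 without dogs 034 and 025 and r = 0.24 and 0.97 within the sets. The other 3 tested relations had r of 0.18, 0.31 and 0.44 and adjusted p of 0.48, 0.30 and 0.13 in permutation tests. Of the 11 tested, 4 had an adjusted p below 0.05 for Pearson r and 3 for both measures. The difference between these relations was not tested, and the part of cell makeup in the changes of the members was not tested further.

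**Figure D3:**
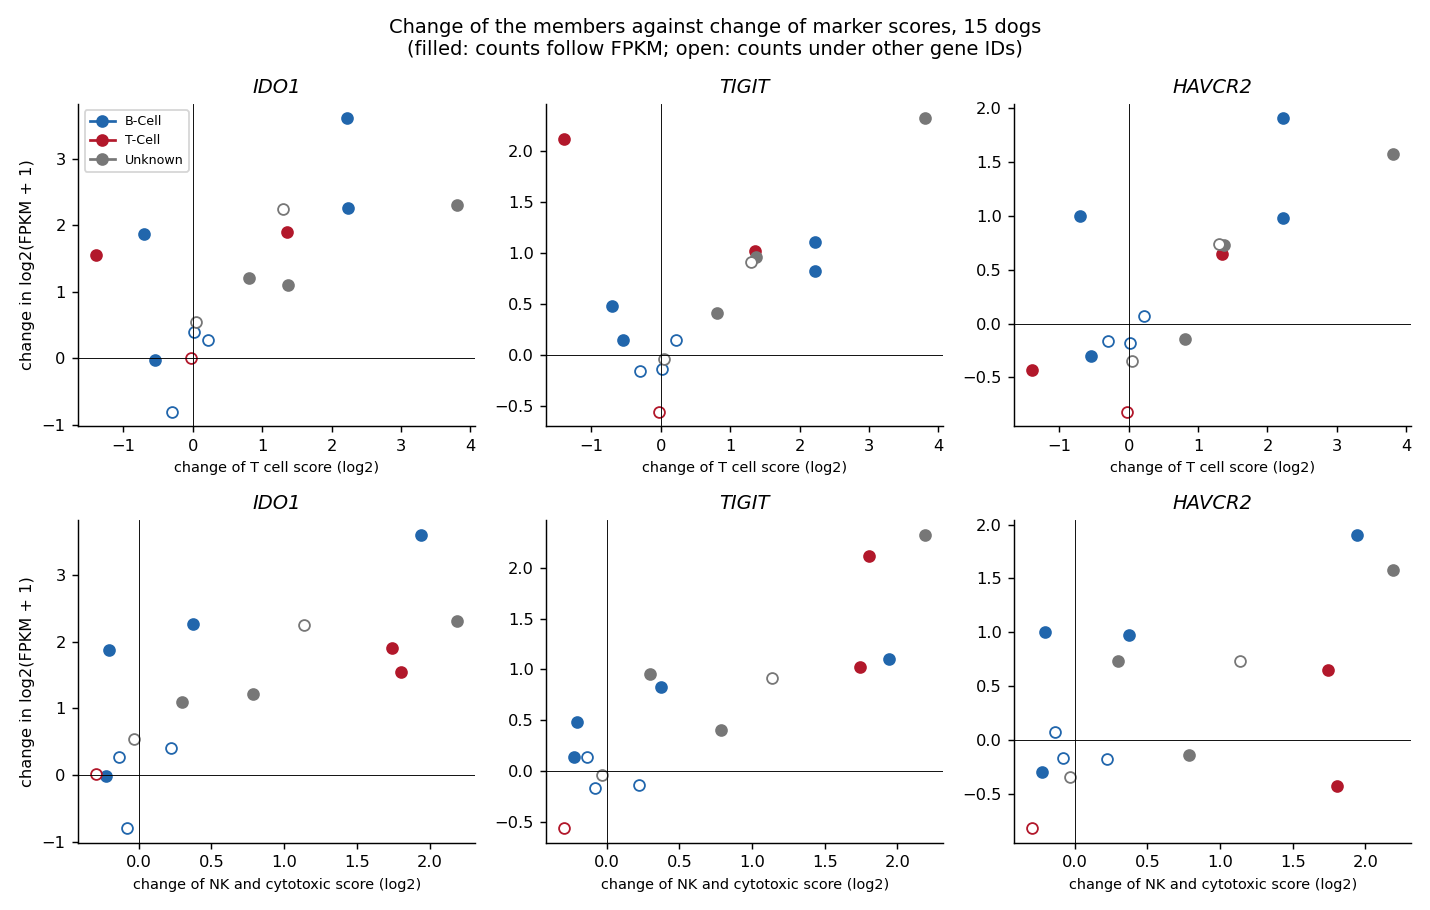
The change of IDO1, TIGIT and HAVCR2 in log2(FPKM + 1) is plotted against the change of the T-cell marker score (upper row) and of the NK and cytotoxic marker score (lower row) in 15 dogs, with filled circles for the 9 dogs whose counts followed FPKM. Pearson r was 0.62, 0.48 and 0.76 in the upper row and 0.74, 0.85 and 0.56 in the lower row.

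The second comparison took the change over time within each immunophenotype. IDO1 was higher at 6 weeks in 5 of 7 B-cell dogs, 3 of 3 T-cell dogs and 5 of 5 dogs of unknown immunophenotype, with mean changes of 1.08 (SE 0.42), 1.15 (SE 0.64) and 1.48 (SE 0.50). TIGIT changed by 0.34 in B-cell dogs, 0.86 in T-cell dogs and 0.91 in unknown dogs, with FDR-adjusted p of 0.935, 0.287 and 0.951 by limma. HAVCR2 changed by 0.47, -0.20 and 0.51, with FDR-adjusted p of 0.935, 0.814 and 0.951 by limma. None of them passed, in fits that called 0% of 14257 genes in each immunophenotype (unadjusted p below 0.05 in 548, 2862 and 650). T-cell dogs 028 and 036 had lower HAVCR2 at 6 weeks and dog 038 had higher.
Without dog 028 the TIGIT change in T-cell dogs was 1.57 and passed with an FDR-adjusted p of 0.044 (limma), in a fit that called 10.5% of genes, and the HAVCR2 change turned to 0.11. The TIGIT change was 0.23 without dog 036. In B-cell dogs dog 034 moved each value, with changes of 0.67 for IDO1, 0.22 for TIGIT and 0.23 for HAVCR2 without it. In unknown dogs the TIGIT change was 0.56 and the HAVCR2 change 0.25 without dog 025. Without dogs 029 and 038 the IDO1 change was 1.22 in B-cell and 0.78 in T-cell dogs, that of TIGIT 0.38 and 0.78, and that of HAVCR2 0.54 and -0.62. An exact permutation test over 3 dogs cannot go below p = 0.25.

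Neither TIGIT nor HAVCR2 differed in its change between T-cell and B-cell dogs past the threshold. For IDO1, chosen by its change, the difference is given as a description without a test. The difference in change, T-cell minus B-cell, was 0.07 for IDO1 (95% interval -1.55 to 1.69), 0.52 for TIGIT (-0.61 to 1.65, FDR-adjusted p = 0.631, limma) and -0.67 for HAVCR2 (-1.76 to 0.41, FDR-adjusted p = 0.514, limma). The fit called 0% of genes, while 2187 had an unadjusted p below 0.05. The intervals are wide, and a difference as large as the IDO1 change itself lies inside that of IDO1 in either direction. Without dogs 029 and 038 the difference was -0.44 for IDO1, 0.40 for TIGIT and -1.16 for HAVCR2 (FDR-adjusted p of 0.779 for TIGIT and 0.375 for HAVCR2, limma). The sign for IDO1 was not stable, as it also turned without dog 027, 029, 030, 033, 036 or 038 alone, with a pseudocount of 0.1 and on the TPM scale. The value for TIGIT was 1.23 without dog 028 and -0.11 without dog 036, and that for HAVCR2 was -1.10 without dog 038, -0.43 without dog 034 and -0.36 without dog 028.

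The third comparison set T-cell against B-cell dogs at each timepoint. IDO1 was at 20.4, 15.95 and 1.94 FPKM at the initial timepoint in T-cell dogs 028, 036 and 038. In B-cell dogs it was at 0, 0.496, 0.863, 1.47, 2.47 and 2.56 FPKM, and at 67.3 in dog 029. The groups overlapped through dogs 038 and 029, those whose markers went against their labels. With all 10 dogs the difference in log2(FPKM + 1) was 1.57 (95% interval -0.53 to 3.66, FDR-adjusted p = 0.358, limma), in a fit that called 0.344% of genes.
Without dogs 029 and 038 it was 3.18 (95% interval 2.14 to 4.22, FDR-adjusted p = 5.4e-04, limma), with T-cell dogs 028 and 036 alone left in their group. The groups then did not overlap, which follows from leaving out the dogs through which they had overlapped. Both were left out on marker genes of these same libraries, so the smaller p is not independent support for a difference. That fit called 24.2% of genes, so the call is shared by many genes. Without dog 029 alone the difference was 2.28 (FDR-adjusted p = 0.030, limma, with 9.12% of genes called), and without dog 038 alone it was 2.46 (FDR-adjusted p = 0.133, limma). IDO1 before treatment was thus highest in dogs 029, 028 and 036, the 3 dogs with the largest T-cell marker sums.

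At 6 weeks IDO1 was at 20.5, 48.6 and 9.98 FPKM in T-cell dogs 028, 036 and 038 and at 0.476 to 81.5 FPKM in B-cell dogs, with a B-cell median of 3.80. The difference was 1.63 (95% interval -0.66 to 3.93, FDR-adjusted p = 0.644, limma), and 2.74 without dogs 029 and 038 (FDR-adjusted p = 0.327, limma). The fit called 0% of genes, while 1245 had an unadjusted p below 0.05.

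No receptor passed the threshold between the immunophenotypes at either timepoint. TIGIT was 0.478 to 1.95 FPKM in T-cell and 0.154 to 8.82 FPKM in B-cell dogs before treatment, a difference of -0.39 (95% interval -1.48 to 0.70, FDR-adjusted p = 0.678, limma). At 6 weeks its difference was 0.13 (-1.23 to 1.48, FDR-adjusted p = 0.958, limma). Without dogs 029 and 038 these were 0.13 and 0.53 (FDR-adjusted p of 0.856 and 0.790, limma). HAVCR2 was 4.66 to 8.23 FPKM in T-cell and 0.752 to 7.35 FPKM in B-cell dogs before treatment, a difference of 0.69 (-0.20 to 1.57, FDR-adjusted p = 0.338, limma), and at 6 weeks the difference was 0.02 (-1.16 to 1.20, FDR-adjusted p = 0.995, limma). These were 0.90 and -0.26 without dogs 029 and 038 (FDR-adjusted p of 0.181 and 0.901, limma). T-cell dogs 028 and 036, with the largest T-cell marker sums, had TIGIT at 1.95 and 0.621 FPKM before treatment.
PDCD1 was at 0 FPKM in all 3 T-cell dogs before treatment and at 0 in 2 of 7 B-cell dogs, with a highest B-cell value of 1.63 in dog 029 (exact permutation p = 0.17). At 6 weeks PDCD1 was at 0 to 0.372 FPKM in T-cell and 0 to 0.921 FPKM in B-cell dogs (exact permutation p = 0.27). LAG3 gave exact permutation p of 0.18 before treatment and 0.78 at 6 weeks. On leaving out dogs 029 and 038 the exact permutation p was 0.43 and 0.21 for PDCD1 and 0.57 and 0.79 for LAG3. With T-cell dogs 028 and 036 alone left in their group, that test cannot go below 0.05, and no conclusion is drawn from it. With 3 dogs against 7 the smallest two-sided exact p for a test of this kind is 0.017.

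**Figure D4:**
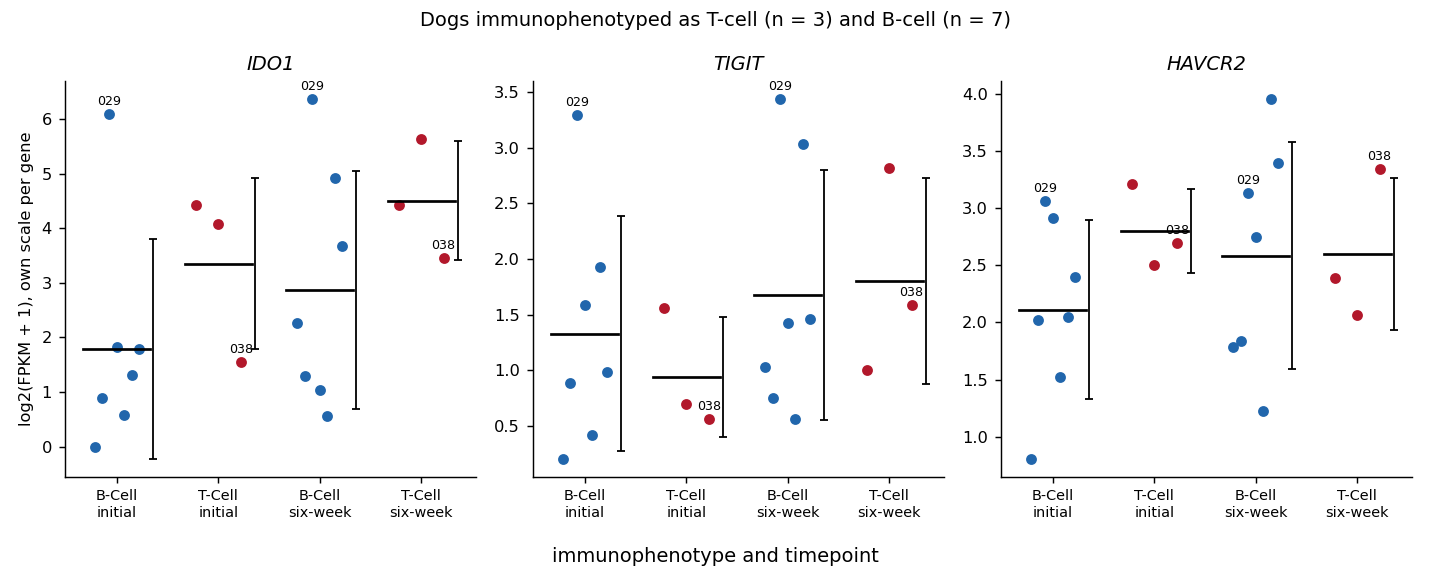
IDO1, TIGIT and HAVCR2 are plotted as log2(FPKM + 1) in 7 dogs labelled B-cell and 3 labelled T-cell at each timepoint, with lines at the means, bars for the SD, and dogs 029 and 038 named. At the initial timepoint dog 029 lies above all T-cell dogs for IDO1, at 67.3 FPKM, and dog 038 among the B-cell dogs, at 1.94 FPKM.

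The genes around the members were taken from lists of the pathway, of which only those paired with a gene ID could be read. Of 18 kynurenine pathway genes 5 had an ID and 3 passed the filter, and none of the 3 was called between timepoints. TDO2, which carries out the same step as IDO1, changed by -0.17 (median 1.31 and 1.10 FPKM). WARS1, the tryptophanyl-tRNA synthetase, changed by 0.03 and had a median of 50.1 and 50.7 FPKM. CYP1B1, a target of the kynurenine receptor AHR, changed by 0.34. AADAT and ACMSD, enzymes further down the pathway, were below the filter. The median change of the list was 0.03, against -0.01 over all genes tested.

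Of 14 checkpoint ligands and partners 6 had an ID and 5 passed the filter, with 4 positive changes, a median of 0.47 and none called (smallest FDR-adjusted p = 0.316, limma). CD80, the shared ligand of CD28 and CTLA4, changed by 0.48 (median 4.88 and 5.95 FPKM). PDCD1LG2 (PD-L2), a ligand of PD-1, changed by 0.47 (median 1.13 and 3.07 FPKM). LGALS3, a galectin that binds LAG3, changed by 0.74 and was higher in 11 of 15 dogs. DLA-DRA, a chain of MHC class II and so of the main LAG3 ligand, was at a median of 1737 and 1756 FPKM and changed by 0.12. HMGB1, a ligand of TIM-3, changed by -0.23 (median 312 and 257 FPKM). FGL1, another LAG3 ligand, was below the filter with medians of 0.468 and 0.854 FPKM.

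Of 8 costimulatory and other inhibitory receptors tested, 7 had positive changes, with a median of 0.67 and none called (smallest FDR-adjusted p = 0.314, limma). ICOS, a costimulator of activated T cells, changed by 0.82, CD160 by 0.87, CD28 by 0.69 and TNFRSF18 (GITR) by 0.33. Of 6 exhaustion and regulatory T-cell factors, 5 had positive changes, with a median of 0.42 and none called. TOX, a factor of exhausted T cells, changed by 0.59 and was higher in 12 of 15 dogs, IRF4 changed by 0.54, PRDM1 by 0.77 and IL2RA by 0.30. IL2RA, the interleukin 2 receptor alpha chain, was the only gene tested in the further and marker lists that was called between T-cell and B-cell dogs before treatment, at -2.76 (FDR-adjusted p = 0.035, limma). Without dogs 029 and 038 it was at -2.93 (FDR-adjusted p = 0.0044, limma), and 16 of the 30 genes tested in the further lists were called, 8 higher and 8 lower, in that fit with 24.2% of all genes called.
Of 8 interferon gamma response genes, 7 had positive changes, with a median of 0.17 and none called. CXCL10, a chemokine that attracts T cells, changed by 1.20, close to IDO1, from a median of 3.25 to 11.4 FPKM, and was higher in 13 of 15 dogs (FDR-adjusted p = 0.298, limma). IRF1 changed by 0.27, IL18 by 0.29 and PSMB9 by 0.14.

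**Figure D5:**
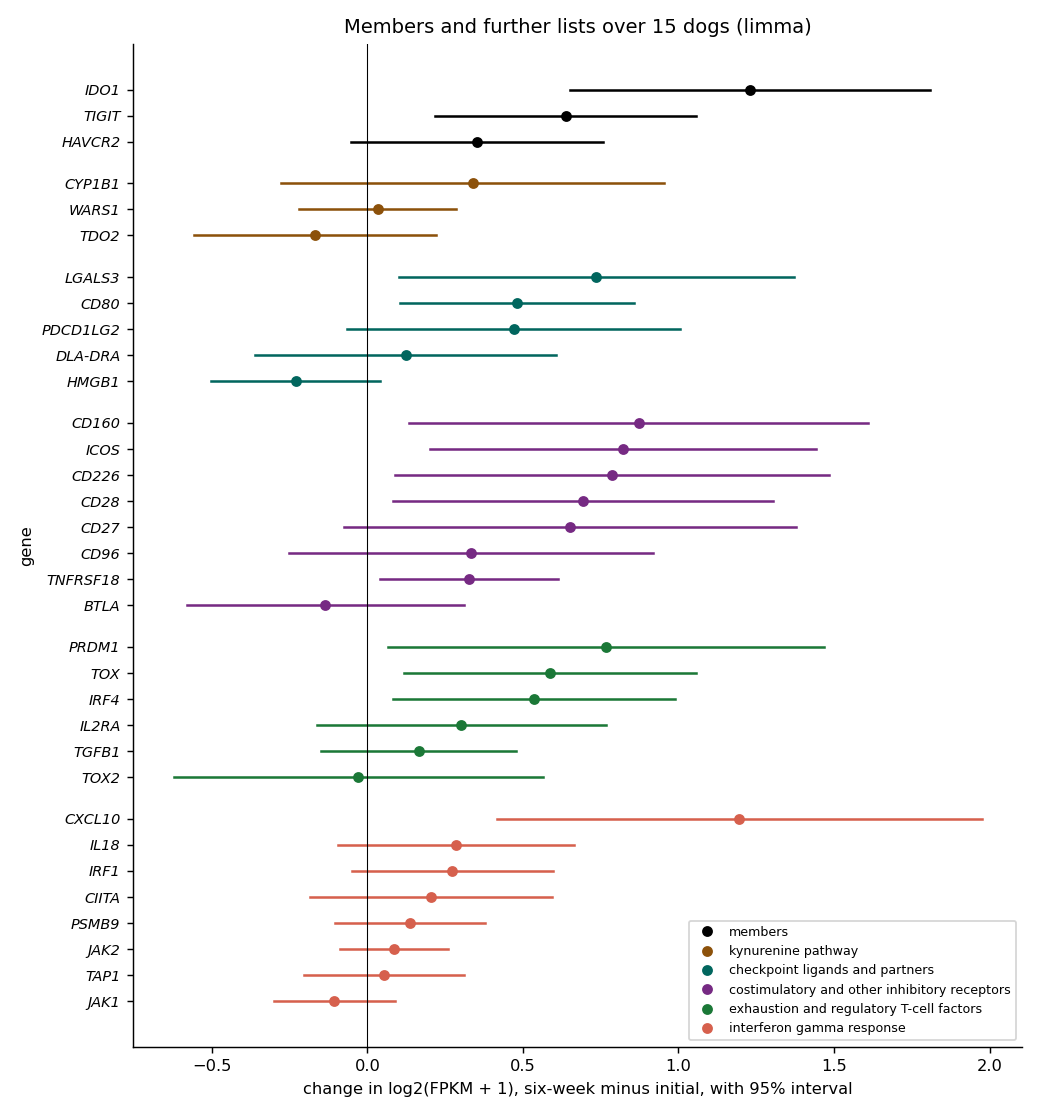
Mean changes in log2(FPKM + 1), six-week minus initial, over 15 dogs are plotted with 95% intervals from limma for the members and 5 further lists. IDO1 (1.23) and CXCL10 (1.20) lie farthest to the right, and IDO1 was selected on this change.

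The genes most like each member were found by Pearson r of log2(FPKM + 1) over the 15 initial libraries among 3922 other genes with a symbol and a mean FPKM above 1 (3923 for PDCD1 and LAG3), and r was then read in the 15 six-week libraries. The symbols came from the study's tables of called genes, so the search covered named genes only. IDO1 was most like TXK, a kinase of T cells (r = 0.96, then 0.90 at 6 weeks), RGS10 (0.95, then 0.90) and DOCK1 (0.95, then 0.85). TIGIT was most like EFEMP1 (0.96, then 0.74), SSBP2 (0.93, then 0.82) and TJP1 (0.91, then 0.77). HAVCR2 was most like PURG (0.84, then 0.70), TMF1 (0.82, then 0.71) and FRMD4B (0.82, then 0.66). At 6 weeks 0.357% of the genes compared were closer to IDO1 than TXK, and 8.80% were closer to TIGIT than EFEMP1.
PDCD1 was most like ZNF550 (0.92, then 0.28), IL2RB (0.90, then 0.48) and HSD17B14 (0.90, then -0.08), and LAG3 was most like PJA2 (0.84, then 0.02), ZNF583 (0.84, then -0.23) and MTUS1 (0.83, then 0.02). For LAG3 the likeness before treatment was not found again at 6 weeks. For PDCD1 it was weaker with each gene. Of the genes compared, 11.4% were then closer to PDCD1 than IL2RB, 35.3% closer than ZNF550 and 75.8% closer than HSD17B14. These correlations share libraries and depth and are descriptions.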

How the data were processed

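Poly-A RNA was sequenced as single reads. Per the submitters' notes and methods, HISAT2 2.1.0 did the alignment to CanFam3.1 and StringTie 1.3.3 the assembly. The authors deposited one FPKM value for each gene and library, relative to transcript length and depth. The authors also deposited raw read counts, not normalized. Groups came from the labels. Libraries were paired by dog, and dog 031_032 was paired by elimination. The deviations of a dog's 2 libraries from the group means had a median correlation of 0.601 (lowest -0.114), above 0.1 in 14 of 15 dogs. It was 0.344 in dog 031_032. The initial library correlated best with the six-week library of the same dog in 9 of 15 dogs. The dogs are the replicates.

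Genes with a mean FPKM above 1 were fitted on log2(FPKM + 1) with limma 3.58.1 and the dog as block, and p-values were adjusted by Benjamini-Hochberg over all genes. A change on this scale understates that of low genes. Members under the filter had two-sided exact permutation tests over dogs. Counts of genes with a mean scaled count above 50 in the 9 dogs whose ranks followed FPKM were fitted with edgeR 4.0.16 (quasi-likelihood) and DESeq2 1.42.0 in R 4.3.3. Python 3.11.15, NumPy 2.4.6, SciPy 1.17.1 and pandas 2.3.3 were used. The fits were tested on simulated data. Symbols came from the study's tables, and their other columns, the authors' own comparisons, were not used. The members and lists were chosen with earlier results of these data known. Named were the members, all ligands, at most 4 genes of each further list with the smallest p between timepoints, and the 3 genes most like each member. TDO2, WARS1 and CYP1B1 were all those tested of their list. Alternatives were other pseudocounts, filters, scalings and tools, and leaving dogs out.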

Additional observations from a re-analysis of the deposited data

Results flagged for a closer look

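Groups of 5 or 7 dogs were searched for a library far from the rest in log2(FPKM + 1), in 30 groups of values. With independent, normally distributed values chance flags about 1 in 20 of such groups. The groups here share libraries and some hold many zeros, so that rate is only a rough guide. There were 3 flags. In the 7 B-cell dogs at the initial timepoint, IDO1 in dog 029 (67.3 FPKM) lay far above the others, the next being 2.56 FPKM. PDCD1 in the same library (1.63 FPKM) was also far above the other B-cell dogs, the next being 0.455 FPKM. Dog 029 had T-cell marker sums of 580 and 706 FPKM, above those of the other B-cell dogs at each timepoint. In the 5 dogs of unknown immunophenotype at the initial timepoint, TIGIT in dog 031_032 (1.14 FPKM) was above the others, the next being 0.452 FPKM. The 2 samples of this dog carry different numbers in their labels, which does not touch a value at a single timepoint.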

How the results depend on the processing

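Of 596 alternative values of single members, 559 kept direction and side of the threshold, 11 passed it newly and 26 changed sign. Of the latter, 17 came from leaving out 1 dog. IDO1 over time in all dogs stayed positive in every alternative run, from 0.86 with the T-cell score to 1.75 in 9 dogs (added after the data were examined) in FPKM. Since IDO1 was chosen by this rise, that range is a description and no support for the rise. Without the replicate block the changes were the same by construction, with an adjusted p of 0.9997 for TIGIT and HAVCR2 (limma), and 0 members were called with or without the block. The number of called members besides IDO1 over time went from 0 to 2 with DESeq2 on counts and from 0 to 1 in T-cell dogs when 1 dog (028) was left out. For T-cell against B-cell dogs before treatment it went from 0 to 1 (IDO1) without dogs 029 and 038, and was 0 to 1 on leaving out each dog. The difference in change of IDO1 was -0.32 with a pseudocount of 0.1, -0.27 on the TPM scale and -0.44 without dogs 029 and 038, and -0.30 to 0.64 on leaving out each dog; that of TIGIT was -0.11 to 1.23 and of HAVCR2 -1.10 to -0.36. TIGIT in T-cell against B-cell dogs was 0.13 before treatment without dogs 029 and 038. At 6 weeks it was -0.083 on the TPM scale, and -0.38 to 0.53 on leaving out each dog. HAVCR2 at 6 weeks was -0.16 on the TPM scale, -0.26 without dogs 029 and 038 and -0.36 to 0.28 on leaving out each dog, and its change in T-cell dogs was -0.62 to 0.11. LAG3 at 6 weeks was -0.049 with a pseudocount of 0.1, -0.13 without dogs 029 and 038, and -0.19 to 0.30 on leaving out each dog. The TPM scale moved the median change of all genes in T-cell dogs from -0.09 to -0.32, beside which the TIGIT change there was 0.65. With genes of any FPKM kept, 3054 of 32008 genes were called over time and no member besides IDO1, which was not tested. PDCD1 and LAG3 are limited by read depth.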
